A study of Saccharomyces cerevisiae with 6 samples.

Results

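Rap1 peaks of Saccharomyces cerevisiae strain UKY403 were compared between 2 h and 4 h after histone H4 synthesis was shut off. All peaks of the 2 h list (2438) and of the 4 h list (4073) were used, 6511 of the 7723 peaks in the 3 lists of the series. UKY403 is the H4 shutoff strain: cells grown in galactose were washed into dextrose at 30C, and both groups described here had therefore been in dextrose, without H4 synthesis, for 2 h (group H4 shutoff 2 h) or 4 h (group H4 shutoff 4 h). The isogenic control strain UKY412 was not analysed here, so time without H4 synthesis and time in dextrose cannot be told apart. Each group comprised 2 replicates from separate time courses, but each time point is represented by 1 peak list, so there is no spread between replicates and no test between the times. Intervals below are 95% exact binomial intervals, or intervals of a median from the binomial distribution of ranks. They cover counting error over tags, peaks or genes only, and peaks are not replicates of a time point.

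Rap1 is a general regulatory factor that binds DNA directly, mostly in nucleosome-depleted promoters. It activates ribosomal protein genes and glycolytic genes, and at telomeres and the silent mating loci it recruits silencing proteins. Nucleosomes, which contain H4, cover most coding regions, and the title of the series concerns their effect on Rap1 binding inside genes. The later interval of the time course asks how sites listed at 2 h compare 2 h later.

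A 4 h peak was called gained if it lacked any base in common with the 2 h peaks and kept if it had at least 1. A 2 h peak without any shared base at 4 h was called dropped. Heights are the extended tags piled up at a peak's summit, and scaled heights are heights per 1000000 kept tags. The kept tags, those left when 1 tag per position and strand is retained, numbered 1483679 at 2 h and 2327099 at 4 h. With this rule no height can pass 292, which corresponds to a scaled height of 197 at 2 h and of 125 at 4 h. A site at this limit in both lists must therefore show a scaled ratio of 0.64 whatever its occupancy. Heights of at least 250 were found for 263 peaks at 2 h and 339 at 4 h, and results are given with and without them.

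The 4 h list held many more Rap1 sites inside genes than the 2 h list, and few 2 h sites were missing from it. Both counts depend on the length of the 4 h list: with only its 2438 peaks of highest q rank, 431 peaks were gained (90.7% coding) and 384 dropped (43.5% coding). The 4 h list contained 1766 gained peaks (43.4%, interval 41.8 to 44.9%) and 2307 kept peaks. From the 2 h list 88 peaks (3.61%, interval 2.90 to 4.43%) were dropped and 2350 were kept. Of the gained peaks, 1525 (86.4%, interval 84.7 to 87.9%) peaked inside a protein-coding span, 153 (8.66%) lay no more than 500 bp before a coding start (upstream) and 88 (4.98%) elsewhere. Kept 4 h peaks were coding in 1386 of 2307 cases (60.1%) and upstream in 613. Dropped peaks showed the opposite make-up, with 17 coding (19.3%, interval 11.7 to 29.1%), 45 upstream and 26 elsewhere. Coding spans occupy 72.8% of the genome. Per kb, gained summits numbered 0.173 in coding and 0.0735 in other DNA, and dropped summits 0.00193 and 0.0216.

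**Figure D1:**
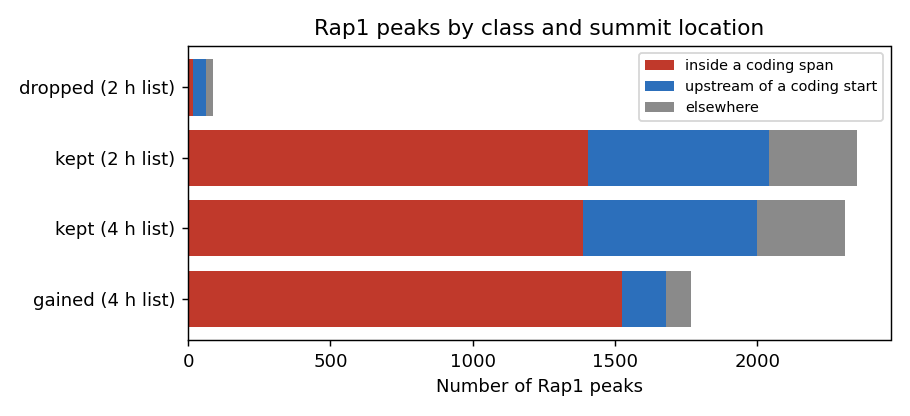
Number of Rap1 peaks (horizontal axis) that were dropped, kept or gained between the 2 h and the 4 h list, coloured by the location of the summit. Gained peaks were mainly coding (1525 of 1766), dropped peaks mainly not (17 of 88 coding).

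The 1-base rule separated the classes with few doubtful cases. The closest gained peak lay 21 bp from a 2 h peak, 27 gained peaks lay within 100 bp of one, with fold enrichments of 1.80 to 3.63, and 8 kept peaks shared at most 100 bp with their 2 h counterpart, with fold enrichments of 1.73 to 2.52. Fold enrichment is throughout the authors' own value, the height over the local background of the same list. The median distance from a gained summit to the nearest 2 h summit was 1664 bp, and 144 gained summits (8.15%) lay within 500 bp of one.

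Gained peaks were weak within the 4 h list. Their median fold enrichment was 2.30, against 4.39 for kept 4 h peaks, and their median scaled height was 30.9, against 61.9. Only 86 of them (4.87%) reached the median scaled height of the 2 h list, 49.2. The 4 h library had 1.57 times the kept tags of the 2 h library. When height and background of each gained peak were scaled to the 2 h depth, 1714 of 1766 (97.1%, interval 96.2 to 97.8%) still passed the p-value of the weakest 2 h peak. Against the 5th percentile of 2 h p-values, a stricter mark, 1152 (65.2%) passed. The weakest peak is a lenient mark for peaks that had already been called at 4 h. Scaled up to the 4 h depth, 88 of 88 dropped peaks likewise passed the p-value of the weakest 4 h peak. These checks cannot show what part depth had in the gains, which was not tested.

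The highest gained coding peak lay in MRPL9, which encodes a protein of the large subunit of the mitochondrial ribosome (chromosome VII, 936176 to 936501, sacCer3). Its summit was 523 bp after the coding start, with a fold enrichment of 6.32 and a scaled height of 78.2. RSN1 followed with 5.50 (chromosome XIII, 799531 to 799904) and MDL1, encoding a mitochondrial ABC transporter, with 5.25 (chromosome XII, 529384 to 529707). DNL4, encoding DNA ligase IV, had a gained peak of 5.15 with its summit 2265 bp into a coding span of 2835 bp. The gained peak of CSS2 reached 4.94 and that of YSP2, whose product transfers sterols at membrane contacts, 4.91. ICP55, a mitochondrial aminopeptidase gene, RNR1, encoding the large subunit of ribonucleotide reductase, the phospholipase B gene PLB1 and VPS4, encoding an ATPase of endosomal sorting, completed the highest 10 with 4.83, 4.77, 4.75 and 4.56. None of these 10 overlapped a peak of the 0 h list, as was usual for gained coding peaks, of which only 5 of 1525 did.

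Gained summits were spread over a large part of the gene set. A gained coding summit was listed in 1299 of 6002 protein-coding genes (21.6%), of which 982 had no coding summit at 2 h and 317 already had one. Where coding spans overlap, a summit counts for each of them in these numbers. With each summit given to the longest span only, 1270 genes remained, of which 1055 received 1 gained summit, 184 received 2, 22 received 3 and 9 received 4. Genes with any coding summit numbered 1259 at 2 h and 2226 at 4 h. The share of genes with a gained summit was 5.15% of the 893 genes shorter than 500 bp and 57.1% of the 240 genes of at least 4000 bp. Per kb of coding span it varied little with length, between 0.151 and 0.187 gained summits in the 5 length classes. All 16 chromosomes gained peaks, from 11.4 per 100 kb on chromosome IX to 16.2 on chromosome VIII.

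Within genes the gained summits lay slightly towards the start. When each coding span was divided into 5 equal parts, from start to end, the parts held 21.1, 23.9, 20.3, 17.6 and 17.1% of the gained coding summits. Of the 1386 kept coding summits of the 4 h list, the parts held 286, 297, 277, 277 and 249. The interval for gained summits in the second part was 21.8 to 26.2% and in the last part 15.3 to 19.1%, so these parts, the highest and the lowest, differed by more than counting error. For kept summits these intervals were 19.3 to 23.7% and 16.0 to 20.1%. In every part the intervals of gained and kept summits overlapped, so the tilt was not particular to gained summits. The median gained coding summit lay 749 bp after the coding start.

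Gained peaks upstream of genes were fewer and slightly lower. Their median scaled height was 27.9 (interval 27.1 to 29.2), against 31.4 (30.9 to 31.8) for gained coding peaks, while the intervals of the median fold enrichment, 2.18 and 2.31, overlapped. Upstream summits were gained at 195 genes (3.25% of all), and the highest had a fold enrichment of 4.39. It lay 181 bp before RGD1, in a 734 bp peak on chromosome II (734706 to 735439). Next came PET111 (3.90), which encodes a translational activator of a mitochondrial mRNA, and YHL048C-A (3.77), with its summit at position 5813 of chromosome VIII. The peak between STT3, encoding a subunit of oligosaccharyltransferase, and PIB2 had 3.42 and was within 500 bp of both starts, so it cannot be assigned to 1 of them. YDR169C-A had 3.18. Of the gained upstream peaks 28 of 153 overlapped a 0 h peak, against 5 of the 1525 gained coding peaks, so some gained upstream peaks lay at places listed at 0 h but not at 2 h.

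By the 1-base rule dropped peaks were few, weak and mostly outside genes. A dropped coding summit was listed in 17 genes (0.283% of all) and a dropped upstream summit at 54 (0.9%). Their median fold enrichment in the 2 h list was 2.26, against 3.59 for kept 2 h peaks, and 3.73 was the highest. These numbers depend on the matching: 212 peaks were dropped (45.3% coding) when summits had to lie within 100 bp, and 384 (43.5% coding) with lists of equal length. Of the 88, 41 (46.6%, interval 35.9 to 57.5%) overlapped a 0 h peak, a share like that of kept 2 h peaks (1010 of 2350, 43.0%). Among gained peaks 40 of 1766 (2.27%) did. A tRNA gene lay within 500 bp of the summit for 11 dropped peaks (12.5%, interval 6.41 to 21.3%), compared with 47 of 2350 kept 2 h peaks (2.00%, 1.47 to 2.65%) and 19 of 1766 gained peaks (1.08%, 0.649 to 1.68%). These classes differ in location, with 19.3, 59.7 and 86.4% coding, and the tRNA shares were not matched for it.

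The highest dropped peak lay between ALG13, which encodes a subunit of a sugar transferase of glycan assembly, and RIM8 on chromosome VII (412473 to 412684), with a height of 71 and a fold enrichment of 3.73 at 2 h. A second dropped peak lay beside it inside ALG13 (411946 to 412162, fold enrichment 2.80). Upstream sites dropped next were at BLM10 (2.87), which encodes a proteasome activator, between RPN6, encoding a subunit of the proteasome lid, and PMT1 (2.87), and at SPT8 (2.82), encoding a subunit of the SAGA coactivator. Each of these upstream peaks and the ALG13 to RIM8 peak overlapped a 0 h peak. The peak between SOL4 and MGA1 (2.73) did not. Among dropped coding peaks the highest by fold enrichment was in URA3, with 61 tags at 2 h. URA3 encodes a pyrimidine synthesis enzyme and is a common yeast marker gene. The sources used here do not say whether URA3 is intact in UKY403. ALG13, THI72 (2.76), TIR4 (2.64), encoding a cell wall mannoprotein, and VPS8 (2.50), encoding a protein of endosomal tethering, followed. THI72 and TIR4 belong to families of similar genes, so their values are uncertain as far as tags match several members.

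Sites present at both times mostly kept their position. A match of 1 peak to 1 peak was found for 2225 pairs, 55 peaks at 4 h covered 2 or more 2 h peaks (112 in all), and 13 peaks at 2 h were divided over 27 peaks at 4 h. In the 2225 pairs the summit moved by a median of 10 bp and by at most 25 bp in 1764 (79.3%), and 64 summits moved by over 100 bp. The location class was the same in 2184 pairs (98.2%), and 17 summits went from upstream to coding while 7 went the other way.

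Kept sites inside genes and kept sites outside genes differed in height ratio. The median ratio of scaled heights, 4 h over 2 h, was 1.24 in 1328 coding pairs (interval 1.21 to 1.25), 0.75 in 612 upstream pairs (0.73 to 0.80) and 0.80 in 285 pairs elsewhere (0.76 to 0.86). The ratio was above 1 in 77.5% of the coding and 24.3% of the upstream pairs. The upstream value contains many sites near the height limit. Among pairs below 250 in both lists the medians were 1.25 in coding spans (1241 pairs), 0.92 upstream (418 pairs) and 0.90 elsewhere (225 pairs). Scaled by all sequenced tags, every ratio is 1.24 times higher (0.31 on the log2 scale), so that below the limit the upstream median was 1.14 and the other one 1.11. The direction outside genes thus flips with the scaling, whereas the coding median stayed above 1 (1.55) and the gap between coding and upstream sites does not depend on it.

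**Figure D2:**
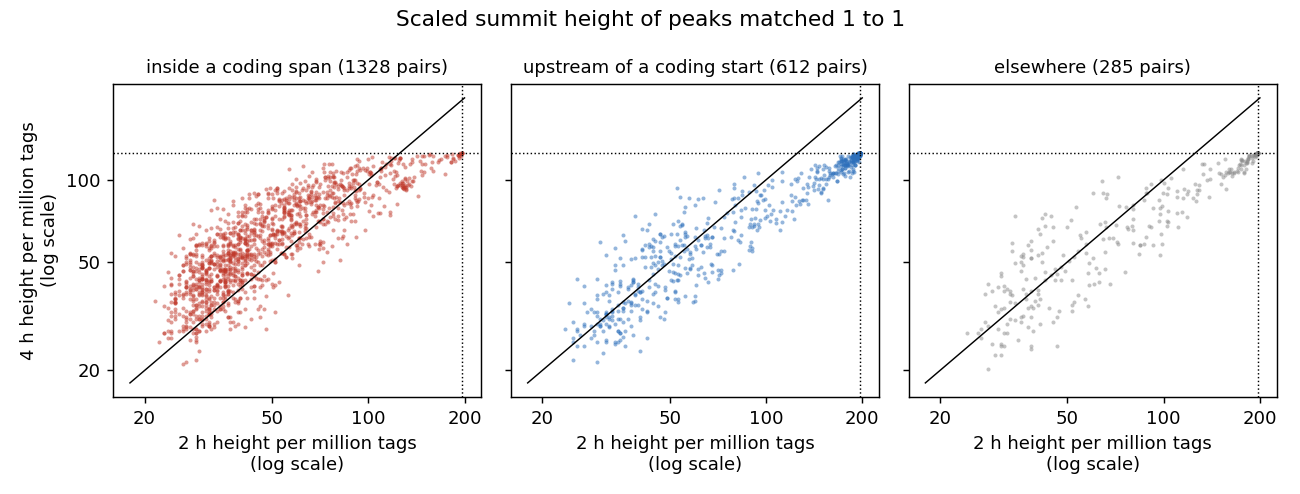
Scaled summit height at 2 h (horizontal, log scale) and 4 h (vertical, log scale) of each peak matched 1 to 1, in extended tags per 1000000 kept tags, split by summit location. The solid line marks equal values and dotted lines the largest possible height (197 at 2 h, 125 at 4 h); most coding points lie above the line, and strong upstream points crowd at the limit.

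At like 2 h height the coding sites had the higher ratios. For 2 h heights from 50 to 74 tags the median ratio was 1.32 in coding spans (471 pairs, interval 1.28 to 1.36) and 1.01 upstream (124 pairs, 0.95 to 1.09). For heights from 100 to 149 it was 1.10 (192 pairs, 1.05 to 1.13) and 0.82 (75 pairs, 0.75 to 0.87). Between 200 and 249 it was 0.74 and 0.67, and from 250 upwards 0.64 for both, the value fixed by the limit. In every class below 250 the coding median was above the upstream median, with intervals that did not overlap except in the class from 150 to 199, where they were 0.78 to 0.89 and 0.65 to 0.79.

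Presence in the 0 h list went with a lower ratio in every location. Pairs whose 2 h peak overlapped a 0 h peak had a median ratio of 0.75 (952 pairs), and those without a 0 h counterpart 1.29 (1273 pairs). The 0 h list was not used to choose or match the peaks. At 2 h heights below 100 the coding medians were 1.02 with a 0 h peak (51 pairs, interval 0.96 to 1.06) and 1.34 without (956 pairs, 1.32 to 1.36). Upstream they were 0.96 (190 pairs, 0.93 to 0.98) and 1.12 (83 pairs, 1.08 to 1.23), and elsewhere 0.90 (75 pairs, 0.86 to 0.98) and 1.30 (65 pairs, 1.10 to 1.38). At heights from 100 to 249 the coding medians were 0.83 (137 pairs, 0.78 to 0.85) and 1.09 (161 pairs, 1.05 to 1.13). These intervals did not overlap. Heights within a class were not fully matched, and the ratio fell with height. The median 2 h height of coding pairs from 100 to 249 was 160 tags with a 0 h peak and 119 without. Below 100 it was 65 and 56. Sites that had first been listed at 2 h thus had higher ratios than sites listed from 0 h on, inside and outside genes. Of the 312 pairs that were at least 1.5 times higher at 4 h, 305 had no 0 h counterpart.

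**Figure D3:**
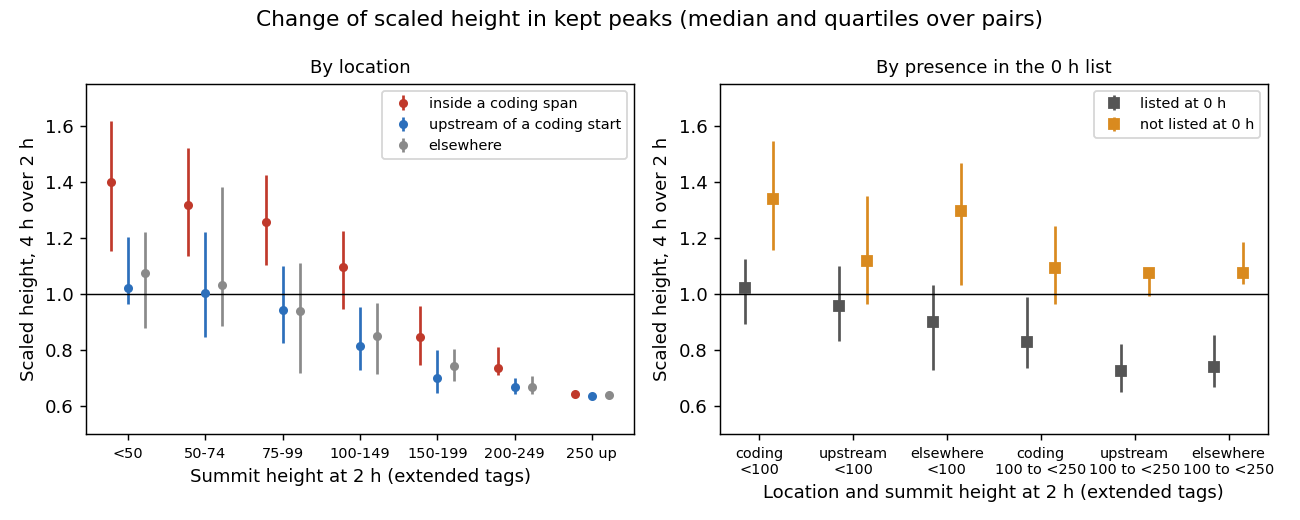
Ratio of scaled heights, 4 h over 2 h (vertical), by 2 h summit height in extended tags, for 3 locations (left), and by location and 2 h height with pairs split by presence in the 0 h list (right). Points are medians and bars quartiles over pairs; coding points lie above upstream points below 250, and pairs not listed at 0 h lie above those listed, as for coding sites below 100 tags (1.34 against 1.02).

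A ratio of at least 1.5 was found in 312 of 2225 pairs (14.0%) and one of at most 1/1.5 in 317 (14.2%). These counts depend on the scaling: with all tags 802 pairs were higher and 1 lower, and below 250 tags with a correction for filled positions, chosen after seeing the data, 709 were higher and 70 lower. Of the higher pairs 286 were coding (21.5% of coding pairs), 14 upstream and 12 elsewhere. Of the lower pairs 229 had a height of at least 250 in either list, where the limit holds the ratio down. Below that limit 88 pairs were lower, 7 of them coding, 55 upstream and 26 elsewhere. Judged by the counting interval of each single pair below 250, 461 of 1241 coding pairs lay above 1 and 65 below, against 30 above and 118 below of 418 upstream pairs.

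Among pairs below 250 tags, the 8 largest ratios were all inside genes and all at sites not listed at 0 h. RRD1, encoding an activator of protein phosphatases, went from 49 to 197 tags, or a scaled height from 33.0 to 84.7, a ratio of 2.56 (counting interval 1.87 to 3.58). DLD1, which encodes a mitochondrial lactate dehydrogenase, went from 38 to 146 tags (ratio 2.45, 1.70 to 3.60). FIG2, encoding a cell wall adhesin of mating cells, went from 42 to 160 tags (2.43, 1.72 to 3.50). For all 8 sites the interval lay above 1. The pyruvate carboxylase gene PYC2 had a ratio of 2.39, the cAMP phosphodiesterase gene PDE1 2.33, and IQG1, encoding a scaffold of cytokinesis, 2.29. The flocculin genes FLO11 and FLO5 had 2.23 each, with FLO5 going from 36 to 126 tags. FLO5 has close relatives in the genome, so its tags may be shared with them. These 8 were picked as the extremes of 1884 pairs, and their intervals do not allow for that choice.

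The 8 lowest ratios below 250 tags were all at sites outside genes that were also listed at 0 h. The lowest was the site between ESL2 and PCK1, the latter encoding the gluconeogenic enzyme phosphoenolpyruvate carboxykinase, with 69 tags at 2 h and 57 at 4 h (scaled heights 46.5 and 24.5, ratio 0.53, counting interval 0.36 to 0.76). The site between ARP7 and the glutamine synthetase gene GLN1 had 145 and 123 tags (0.54, 0.42 to 0.69). The ribosomal protein promoter of RPS0A had 232 and 197 tags (0.54, 0.45 to 0.66). These heights were lower at 4 h even before scaling. CIS3, encoding a cell wall protein, had 0.58 upstream, the left end of chromosome VIII 0.59, the site between MRX16 and YCF1 0.59, and the promoters of HIS4, a histidine synthesis gene long known to be activated by Rap1, and of RPL22A 0.59 each. Of these, RPS0A, HIS4, RPL22A and the chromosome end had 2 h heights above 200, where the limit lowers the highest ratio possible.

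Kept peaks were wider at 4 h, mainly inside genes. The median length ratio was 1.33 in coding pairs (interval 1.31 to 1.35), 1.04 upstream (1.03 to 1.06) and 1.03 elsewhere (0.99 to 1.06). At 4 h 91.0% of the coding peaks and 61.8% of the upstream peaks were longer than at 2 h. A doubling or more was found in 143 pairs, 117 of them coding. At 2 h heights from 50 to 74 tags the median was 1.37 (1.34 to 1.41) in coding spans and 1.15 upstream (1.06 to 1.22), and at 100 to 149 tags 1.23 (1.18 to 1.26) and 1.01 (0.97 to 1.08). Peak edges lie where the signal passes the caller's threshold, so a deeper list gives longer peaks; the part of depth in the lengths was not tested. In the 442 pairs with a scaled ratio within 10% of 1 the median length ratio was 1.17.

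**Figure D4:**
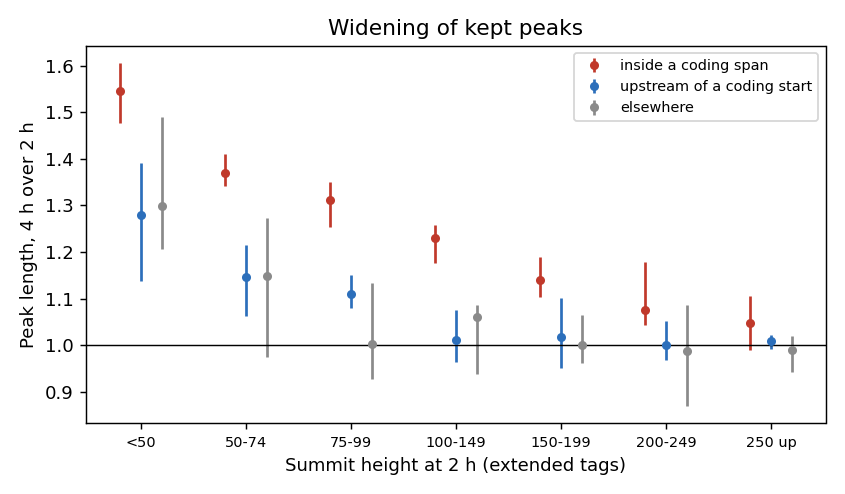
Length of kept peaks at 4 h over that at 2 h (vertical) by 2 h summit height in extended tags (horizontal), for 3 summit locations. Points are medians with their 95% intervals; coding medians are highest at low heights and all locations approach 1 near the height limit.

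The largest length ratio was at MRM1, encoding a methyltransferase of mitochondrial ribosomal RNA, whose coding peak went from 154 to 746 bp (chromosome XV, 720549 to 721294 at 4 h) with a height ratio of 2.12. A separate 2 h peak near the start of MRM1, with its summit 29 bp into the span, was dropped (721583 to 721778). URA2, encoding the first enzymes of pyrimidine synthesis, went from 152 to 657 bp, and the myosin gene MYO3 from 178 to 763 bp. GEX2, encoding a glutathione exchanger 4112 bp from the right end of chromosome XI, went from 155 to 645 bp, and TAO3 from 198 to 679 bp. All 5 were higher in scaled height too, with ratios from 1.43 to 2.19.

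Few 4 h peaks joined several 2 h peaks. The peak between RAD2 and the nicotinic acid transporter gene TNA1 at 4 h covered 3 peaks of the 2 h list and was 1110 bp long. So did a peak of 2183 bp at CUP1-2, a metallothionein gene in a repeated locus where tags may match several copies. The highest of those that covered 2 were a peak with its summit 196 bp from the right end of chromosome XIV (292 tags), one between MSC6 and GDS1 (291 tags) and one between CCA1 and RPH1 (278 tags).

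Ribosomal protein promoters were listed at both times, mostly at the height limit. Of 137 ribosomal protein genes 110 had an upstream summit at 2 h and 111 at 4 h, and no member had a gained or a dropped upstream summit, against 3.25 and 0.9% of all genes. The 105 matched upstream peaks had a median scaled ratio of 0.64, and 94 of them reached at least 250 tags, so the limit fixes most of this value and it says nothing of occupancy. The highest by 4 h fold enrichment, at RPL23A, RPS20 and RPS0B, had 291 tags at 2 h and 292 at 4 h each, RPL16A had 290 at both times and RPL8B had 286 and 289. Their lengths hardly differed, for example 517 and 523 bp at RPS20, and the median length ratio was 0.99. The single member with a ratio above 1.5 was RPS8B, where 53 tags at 2 h compared with 146 at 4 h (ratio 1.76, counting interval 1.27 to 2.45) at a site without a 0 h peak. Inside the coding spans of these short genes, 12 members had a summit at 2 h and 34 at 4 h (8.76 and 24.8%, against 21.0 and 37.1% of all genes). A coding summit was gained by 23 members (16.8%, against 21.6% of all genes), the highest being RPL24B (3.41), RPL33A (3.40) and RPL4B (3.07).

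Most glycolytic genes held Rap1 inside the coding span by 4 h. Of 20 members, 13 had a coding summit at 2 h and 18 at 4 h (68.3 to 98.8% by the interval, against 37.1% of all genes), and 8 members gained one (interval 19.1 to 63.9%, against 21.6%). The median ratio of 15 coding pairs was 1.20, next to 1.24 for all coding pairs, and that of 9 upstream pairs 0.86. At PDC5, encoding a pyruvate decarboxylase, 180 and 281 tags gave a scaled height of 121 at both times (ratio 0.995, 0.823 to 1.21). The largest scaled height possible at 4 h was 125, so the height limit left this site little room for a higher ratio. Its ratio therefore does not show steady occupancy. PFK1, encoding a subunit of phosphofructokinase, went from 102 to 235 tags (1.47, 1.16 to 1.87). The coding peak of TDH3, encoding glyceraldehyde-3-phosphate dehydrogenase, had 148 and 200 tags (0.86, 0.69 to 1.07), and its promoter 264 and 278. In the enolase gene ENO1, coding summits 493 and 1119 bp after the start went from 78 to 194 tags (1.59, 1.21 to 2.09) and from 52 to 146 (1.79, 1.30 to 2.51). Gained summits appeared in PGI1 (fold enrichment 3.71), PGK1 (3.40) and HXK2 (3.39), which encode the isomerase, a kinase and a hexokinase of the pathway. ENO1, TDH3 and PDC5 have close paralogs, so part of their tags may be shared.

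Genes of carbon storage and of growth without glucose were among those with higher coding ratios. In the trehalose and glycogen list 4 of 10 coding pairs reached 1.5, and the median was 1.48. NTH1, encoding neutral trehalase, went from 35 to 107 tags (1.95, 1.32 to 2.94), the branching enzyme gene GLC3 from 72 to 208 (1.84, 1.40 to 2.44), and GPH1, encoding glycogen phosphorylase, from 112 to 267 (1.52, 1.21 to 1.91). GLG1 and TPS1, which start glycogen and trehalose synthesis, had ratios of 1.49 and 1.32. In the respiration and gluconeogenesis list 6 of 11 coding pairs reached 1.5 (54.5%, against 21.5% of all coding pairs), with a median of 1.51. They included ACS1, encoding acetyl-CoA synthetase (63 and 183 tags, 1.85, 1.38 to 2.51), a site in the isocitrate lyase gene ICL1 (62 and 177 tags, 1.82, 1.36 to 2.47), FBP1, encoding fructose-1,6-bisphosphatase (77 and 217, 1.80, 1.38 to 2.36), the fumarase gene FUM1 (1.67), the aconitase gene ACO1 (1.59) and LSC2 (1.51). A second, stronger site in ICL1 with 187 and 281 tags had 0.96, and CYT1 and MLS1 had 1.12 and 1.25. The scaled height of that ICL1 site at 2 h, 126, was already above 125, the largest possible at 4 h. The height limit thus kept this pair from reaching 1.5, and its ratio does not show steady occupancy. With 10 and 11 pairs the medians rest on few sites. Other lists came near these values. Of 8 proteasome coding pairs 3 (37.5%) reached 1.5, and 4 ribosome biogenesis coding pairs had a median of 1.43.

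**Figure D5:**
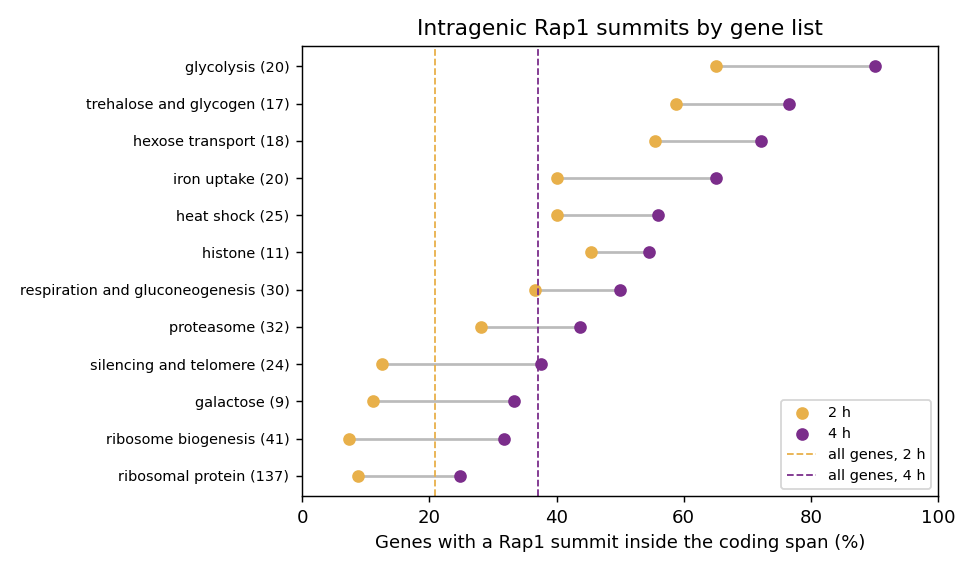
Share of genes in each list (number of members in brackets) with a Rap1 summit inside the coding span at 2 h and at 4 h, in percent (horizontal). Dashed lines give all 6002 protein-coding genes (21.0 and 37.1%); every list had a higher share at 4 h than at 2 h.

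Transporter genes held gained sites, and their kept coding sites had ratios near those of all coding pairs. The median was 1.26 in 12 hexose transport pairs (0.96 to 1.78) and 1.20 in 9 iron uptake pairs (0.80 to 1.87), against 1.24. A ratio of 1.5 was reached by 25 and 22.2% of them, against 21.5% of all coding pairs. Of 18 hexose transporter and sensor genes 10 had a coding summit at 2 h and 13 at 4 h (55.6 and 72.2%, against 21.0 and 37.1% of all genes). Of the 18, 7 gained one (38.9%, interval 17.3 to 64.3%, which includes the 21.6% of all genes). HXT2 had 110 and 211 tags in its coding span (1.22, 0.97 to 1.55) and had a weak dropped upstream peak (43 tags at 2 h), and the glucose sensor gene RGT2 went from 97 to 240 tags (1.58, 1.24 to 2.02) with a further summit gained 75 bp after its start. HXT4 had 1.28. HXT9 and HXT11 had ratios of 1.78 and 1.73 at the same position, 1171 bp after the start, and HXT6 and HXT7 near 970 bp (974 and 970), and near-identical copies may share tags. In the iron uptake list 8 of 20 genes had a coding summit at 2 h and 13 at 4 h (40 and 65%, against 21.0 and 37.1% of all genes). Median gene lengths in the hexose and iron lists were 1704 and 1873.5 bp, against 1200 bp for all genes. The part of gene length in these shares was not tested. The siderophore transporter gene ARN1 went from 143 to 257 tags (1.15, 0.93 to 1.42) and gained a second coding summit, and the heme oxygenase gene HMX1 from 50 to 147 (1.87, 1.35 to 2.64). Upstream sites of this list ranged from 0.65 at FRE1 to 1.64 at ARN2, where 54 and 139 tags were counted (1.19 to 2.29). Those of FRE6 (256 and 286 tags) and ENB1 (223 and 256 tags) had 0.71 and 0.73. At FRE1 (209 and 213 tags), FRE6 and ENB1 the 2 h heights were above 200, where the limit lowers the highest ratio possible.

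In the heat shock, proteasome and ribosome biogenesis lists the ratios varied from site to site. Of 25 heat shock genes 9 gained a coding summit (36%, interval 17.97 to 57.48%, which includes the 21.6% of all genes). The median length of these genes was 1842 bp, against 1200 bp for all genes, and longer genes gained summits more often. The part of gene length in this share was not tested. The chaperone gene HSP78 went from 76 to 213 tags inside its span (1.79, 1.37 to 2.35) while its promoter had 255 and 273, HSP31 had 1.03, and the coding sites of HSP104 had 262 and 282 tags (0.69, near the limit) and 97 and 133 tags (0.87, 0.67 to 1.15). Upstream, HSP26 had 1.61 (1.19 to 2.20) and HSP60 1.28 (0.88 to 1.88). The 2 dropped coding summits of this list were in HSP82 and HSC82, a pair of close paralogs. Of 32 proteasome genes 9 had a coding summit at 2 h and 14 at 4 h (28.1 and 43.8%, against 21.0 and 37.1% of all genes). Their 8 coding pairs had a median ratio of 1.23, and 3 reached 1.5 (RPT6 1.58, RPT4 1.52 and RPT2 1.51). RPT5 had 1.25 and PUP1 1.15, and the peak of PRE2, shared with the divergent RPL11A, stood at 292 tags at both times. Upstream summits at RPN6 and PRE7 were dropped. Of 41 ribosome biogenesis genes 3 had a coding summit at 2 h and 13 at 4 h (7.32 and 31.7%, against 21.0 and 37.1% of all genes). A gained coding summit was listed in 10 of them (24.4%, against 21.6%), led by NOG1, NOP1 and NOP58 (2.75, 2.66 and 2.66). The 4 coding pairs of this list had ratios from 1.19 to 1.48, with a median of 1.43. The promoter of UTP15 had 154 and 174 tags (0.72, 0.58 to 0.90), and those of UTP4 and NSR1 were above 250 tags at both times.

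Among histone, galactose and silencing genes single sites stood out. HHT2 and HHT1, encoding histone H3, had coding summits 98 and 100 bp after their starts with equal ratios of 1.30 (97 and 198 tags, 1.02 to 1.68, and 85 and 173 tags, 0.995 to 1.70); as near-identical copies they may share tags. HTA1 had 0.998 and the promoter of HTZ1 had 1.44. Of 11 histone genes 1, HTA2, gained a coding summit (fold enrichment 2.07). This share (9.09%, interval 0.230 to 41.3%) has an interval that includes the 21.6% of all genes. The median length of these genes was 399 bp, and 5.15% of all genes shorter than 500 bp gained one. The shared promoter of GAL1 and GAL10 was lower at 4 h, with 134 and 128 tags (scaled heights 90.3 and 55.0, 0.61, 0.47 to 0.78), whereas the coding site of PGM2, encoding phosphoglucomutase, went from 67 to 182 (1.73, 1.30 to 2.33). The sources used here do not say whether UKY403 carries further copies of that promoter. The RAP1 promoter stood near the limit with 288 and 290 tags, CDC13, encoding a telomere-binding protein, had a coding site of 150 and 249 tags (1.06), and the promoter of GCR1, encoding an activator of glycolytic genes that acts with Rap1, had 0.70. In this list 7 of 24 genes gained a coding summit (29.2%, interval 12.6 to 51.1%, against 21.6% of all genes), led by SIR4 (4.18), which encodes a silencing protein, 30 bp after its start.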

How the data were processed

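Rap1 ChIP-seq was performed on cross-linked UKY403 cells with a Rap1 antibody, per the labels' protocols. The authors' caller was MACS2 2.0.10.20130712 without a control library, with a q cutoff of 0.05 and 1 tag kept per position and strand, per the file headers. The submitters' processing notes also name Bowtie, SAMtools and sacCer3. The deposited pileup signal is a height in extended tags, not scaled for depth. The deposited fold enrichment is a ratio to the local background, and the authors' -log10 p and q values come from a Poisson model, which was recomputed to within 0.1 for all peaks. The sources used here do not say how the 2 replicates entered each list. All tags numbered 4853264 at 2 h and 6156794 at 4 h, of which 30.6 and 37.8% were kept.

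Peaks were matched by 1 shared bp in Python 3.11.15. Summits were located with the RefSeq R64 gene table, the assembly of sacCer3: within a coding span (coding), at most 500 bp ahead of a start (upstream) or elsewhere. Strand was read from systematic names. Intervals of height ratios treat heights as counts and do not cover the choice of the summit as a maximum. The matching was tested on simulated lists. Named genes were the highest 10 gained coding, 5 gained upstream and 5 plus 5 dropped peaks by fold enrichment, the 8 highest and 8 lowest ratios below 250 tags, the 5 largest length ratios, 5 merged peaks, 5 ribosomal protein promoters and the highest 3 members of 12 gene lists; other genes were chosen after their values were seen. Of the list entries, 1 was not in the gene table. Peak classes and lists were chosen with earlier results of these data known. No genome sequence was used.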

Additional observations from a re-analysis of the deposited data

How the results depend on the processing

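No paired analysis was possible because each time point is 1 list that carries no replicate numbers. No replicate could be left out for the same reason. Of 62 values under alternative settings, 40 were within the interval of the reported value or, for counts, within 1.5 times of it, and 22 were not. Counts within 1.5 times still varied, from 62 dropped peaks with -log10 q of at least 5 to 1152 in place of 1714 gained peaks passing after scaling, against the 5th percentile of 2 h p-values. No median ratio over all pairs crossed 1. With a match by summits within 100 bp, 212 peaks were dropped, 45.3% of them coding, and 0 were merged. With the 4 h list shortened to the length of the 2 h list, 431 peaks were gained (90.7% coding) and 384 dropped (43.5% coding). The number of gained peaks therefore depends on how deep the 4 h list goes, while their coding share was 85.4% or more in every setting except a minimum distance inside the span. With summits at least 200 bp inside a span, the coding shares were 64.4% of gained and 9.09% of dropped peaks. The median height ratio over all pairs (1.07) was 1.05 with -log10 q of at least 5, 1.13 below 250 tags, 1.32 when scaled by all tags and 1.33 with a correction for filled positions below 250 tags, the last chosen after seeing the data. Pairs higher by 1.5 numbered 802 when scaled by all tags and 709 with that correction. Pairs lower by 1.5 numbered 88 below 250 tags, 1 when scaled by all tags, 121 by fold enrichment and 70 with the correction. The median length ratio (1.21) was 1.25 below 250 tags, 1.23 with every 2 h peak paired to its nearest overlapping summit and 1.17 in pairs of steady height, a setting added after seeing the data. With the correction, median ratios below 250 tags were 1.50 in coding spans, 1.01 upstream and 0.98 elsewhere, the upstream interval (0.97 to 1.04) spanning 1. The median height of gained peaks was 72 tags, against 144 for kept 4 h peaks, so their values carry the larger relative counting error.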
